A study of Mus musculus with 12 samples.

Results

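The genes described here are 10 that make or remove reactive oxygen species: the NADPH oxidase subunits Nox4, Nox1, Cyba and Cybb, the mitochondrial carrier Ucp2, the superoxide dismutases Sod1, Sod2 and Sod3, and the peroxide-removing enzymes Cat and Gpx1. They were taken by symbol from the 25230 genes counted in mouse mesangial cells (MMC), the contractile cells that hold the capillaries of the kidney glomerulus together, and all 10 were found. The data are RNA-seq counts from 12 libraries in 4 groups of 3. WT-SD and WT-TGF were primary MMC of wild-type mice, and KO-SD and KO-TGF were primary MMC of the lncMGC-KO5 line, in which CRISPR-Cas9 with a pair of guides removed sequence around the transcription start of the long non-coding RNA lncMGC in C57BL/6J embryos. SD cells were serum-depleted, and TGF cells received TGF-β at 10 ng/ml for 24 h. The KO groups represent 1 of several mutant lines, the cells were grown from pooled glomeruli, and the labels do not say whether the 3 libraries of a group came from separate cultures, so p-values measure only the spread between these samples. The count files have no row for lncMGC, and the knockout was therefore not checked by its own transcript.

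Depth was even, between 19898050 and 22827706 counts on genes per library. Levels are given as CPM, which is counts relative to library sizes scaled by TMM, as mean ± SD (n = 3). Of the markers of mesangial and smooth muscle cells, Pdgfrb averaged between 288 and 384 CPM in the groups, and Thy1 had at most 1 count in any library. The summed CPM of the 11 mesangial and smooth muscle markers had medians of 2918 in WT-SD, 6006 in WT-TGF, 5015 in KO-SD and 10791 in KO-TGF. Most of it was Acta2 and Tagln together. Acta2 averaged 1567, 2930, 3249 and 6287 CPM in that order, and Tagln 714, 2363, 1319 and 3915. Serpine2 instead averaged 277, 193, 83.9 and 44.4 CPM and Des 7.67, 5.62, 0.529 and 0.247. The summed CPM of 18 macrophage markers ran from 43.7 to 48.5 in WT-SD, from 25.7 to 30.3 in WT-TGF, from 8.50 to 10.2 in KO-SD and from 2.67 to 3.16 in KO-TGF. Those of 7 podocyte markers ran from 459 to 468 in WT-SD, from 455 to 474 in WT-TGF, from 218 to 227 in KO-SD and from 205 to 220 in KO-TGF, although Nphs1, the podocyte nephrin gene, had at most 1 count in any library. Those of 8 tubular markers ran from 72.2 to 78.7 in WT-SD, from 18.4 to 20.2 in WT-TGF, from 20.4 to 22.8 in KO-SD and from 6.99 to 7.27 in KO-TGF. Most of the tubular sum in WT-SD was Lrp2 and Cdh16, at 42.6 and 27.5 CPM on average. Slc34a1, Umod and Aqp2 had 0 counts in every library. Slc12a1 went the other way, from 0.358 CPM in WT-SD to 3.05 in KO-TGF, and Aqp1 averaged 4.10 in WT-SD and 6.80 in KO-SD. Sums of 8 endothelial markers were 33.2 to 33.5, 20.2 to 22.6, 17.2 to 18.5 and 9.25 to 10.9 CPM in the same group order. Nearly all of this was Ehd3, which averaged 32.6, 20.8, 17.1 and 9.70 CPM. Cdh5 and Tie1 had at most 2 counts in any library. Pecam1, Kdr and Tek averaged 0.0600, 0.285 and 0.0758 CPM in WT-SD but 0.155, 0.375 and 0.218 in KO-SD. The marker sums thus moved with TGF-β, with genotype or with both, as the members did, and their part in the members' results was not tested. In such bulk samples, fewer cells of a type and less RNA per cell cannot be told apart.

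NADPH oxidases carry electrons from NADPH across a membrane to oxygen. Nox4, the main form of the kidney, needs the small subunit encoded by Cyba and is known as a TGF-β target in mesangial cells and fibroblasts, whereas Cybb encodes the catalytic subunit of phagocytes, which also needs Cyba and cytosolic subunits such as Ncf1 and a Rac protein. Superoxide is turned into hydrogen peroxide by Sod1 in the cytosol, Sod2 in mitochondria and Sod3 outside the cell, the peroxide is removed by catalase (Cat) and glutathione peroxidase (Gpx1), and Ucp2 is a carrier of the inner mitochondrial membrane known for limiting mitochondrial superoxide.

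Nox4 and Ucp2 were the members with the largest rise on TGF-β in both genotypes, so their promoters are shown as RefSeq gives them for GRCm38.p6, from 250 bases before to 50 bases after the transcription start in its promoter table. The gene coordinates given further on span all RefSeq transcripts of a gene, so this start can lie inside them, as it does for Nox4. The Nox4 promoter lies at chr7:87246399-87246698 and the Ucp2 promoter at chr7:100493108-100493407, both on the plus strand. Capitals mark GTCTG, the reverse complement of CAGAC, the core letters that SMAD proteins bind downstream of TGF-β receptors.
Nox4: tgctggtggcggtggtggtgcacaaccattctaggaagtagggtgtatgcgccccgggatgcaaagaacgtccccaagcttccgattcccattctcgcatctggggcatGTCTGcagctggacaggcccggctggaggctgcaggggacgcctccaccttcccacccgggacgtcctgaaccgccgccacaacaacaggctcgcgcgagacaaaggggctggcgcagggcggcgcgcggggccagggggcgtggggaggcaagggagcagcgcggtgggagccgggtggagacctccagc
Ucp2: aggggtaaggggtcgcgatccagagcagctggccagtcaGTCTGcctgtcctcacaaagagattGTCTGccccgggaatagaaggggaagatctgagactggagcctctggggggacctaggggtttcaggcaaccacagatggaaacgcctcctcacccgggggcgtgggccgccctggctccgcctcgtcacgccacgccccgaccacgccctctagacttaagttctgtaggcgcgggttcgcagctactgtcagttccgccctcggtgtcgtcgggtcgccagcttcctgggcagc
The Nox4 promoter held these letters once, with the first base at -141 from the start, and the Ucp2 promoter held them at -211 and -186. Both strands were searched for CAGAC, for the AP-1 letters TGANTCA and for the antioxidant response letters TGACNNNGC, which occurred in 49.6%, 7.81% and 12.4% of 32851 RefSeq promoters of the same length. Promoters were found for 9 members, with Sod3 having none in the table used. Sod1 held CAGAC at -49, where it overlaps an antioxidant response match at -56, and Gpx1 held CAGAC at -22 and 4. The Ucp2 promoter also held the antioxidant response letters at -66, and that of Cybb the AP-1 letters at -139. The promoters of Nox1, Cyba, Sod2 and Cat held none of the 3. A match of letters is a description of the sequence and does not show binding.

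The next question was how each member responded to TGF-β and whether its level differed between genotypes. A gene was tested if it passed RPKM >1 in at least one library, where RPKM is the read count scaled by exon length and library size, and was called at FDR <5% over the 11527 genes tested. Of the members, 9 were tested and 1, Nox1, fell below the limit. On TGF-β in WT, 4 members rose (Nox4, Ucp2, Sod3 and Cat) and 5 fell (Cyba, Cybb, Sod1, Sod2 and Gpx1), where 36% of all genes tested were called higher and 36.4% lower. In KO, 4 rose (the same 4) and 4 fell (Cyba, Cybb, Sod2 and Gpx1), against 34.9% and 39.1% of all genes. In KO-SD against WT-SD, 1 member was higher (Gpx1) and 7 were lower (all but Cat and Gpx1 of those tested), against 30.9% and 25.2% of all genes. In KO-TGF against WT-TGF, 0 were higher and 6 were lower (Nox4, Cyba, Cybb, Ucp2, Sod2 and Sod3), against 27.2% and 27.8%. The count of 0 higher is from edgeR, where 1 member (Cat) was higher at an unadjusted p under 0.05, and DESeq2 called 1 (Cat). The interaction, which sets the response of KO cells against the response of WT cells, was called positive for 1 member (Cat) and negative for 4 (Cyba, Cybb, Sod3 and Gpx1), against 8.68% and 16.6%. These comparisons share groups and are not independent of each other.

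Ucp2 passed the RPKM limit only in TGF-β libraries, and Cybb only in WT libraries, so that both had to differ between groups to be tested. Among the 7 members above the limit in all 12 libraries, 3 rose and 4 fell on TGF-β in WT, and 5 were lower and 1 was higher in unstimulated KO cells than in unstimulated WT cells. The KO-TGF against WT-TGF comparison called 4 of these 7 lower and 0 higher. On TGF-β in KO, 3 of the 7 rose and 3 fell, and the interaction was positive for 1 and negative for 3. These counts stand beside the shares of all genes tested given above. Scaling by library sizes alone, without TMM, shifted the median log2 change of all genes from -0.01 to -0.16 in WT and from -0.03 to -0.23 in KO. The calls on TGF-β in WT then split into 2642 higher and 6054 lower, in place of 4150 and 4197. In KO they split into 2298 and 6714 in place of 4028 and 4511, and in KO-TGF against WT-TGF into 1643 and 5406 in place of 3141 and 3202. In KO-SD against WT-SD they split into 2445 and 4191 in place of 3564 and 2908, and for the interaction into 686 and 2647 in place of 1000 and 1915. Changes of a member that turn or lose their call under this scaling are named with it below.

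**Figure D1:**
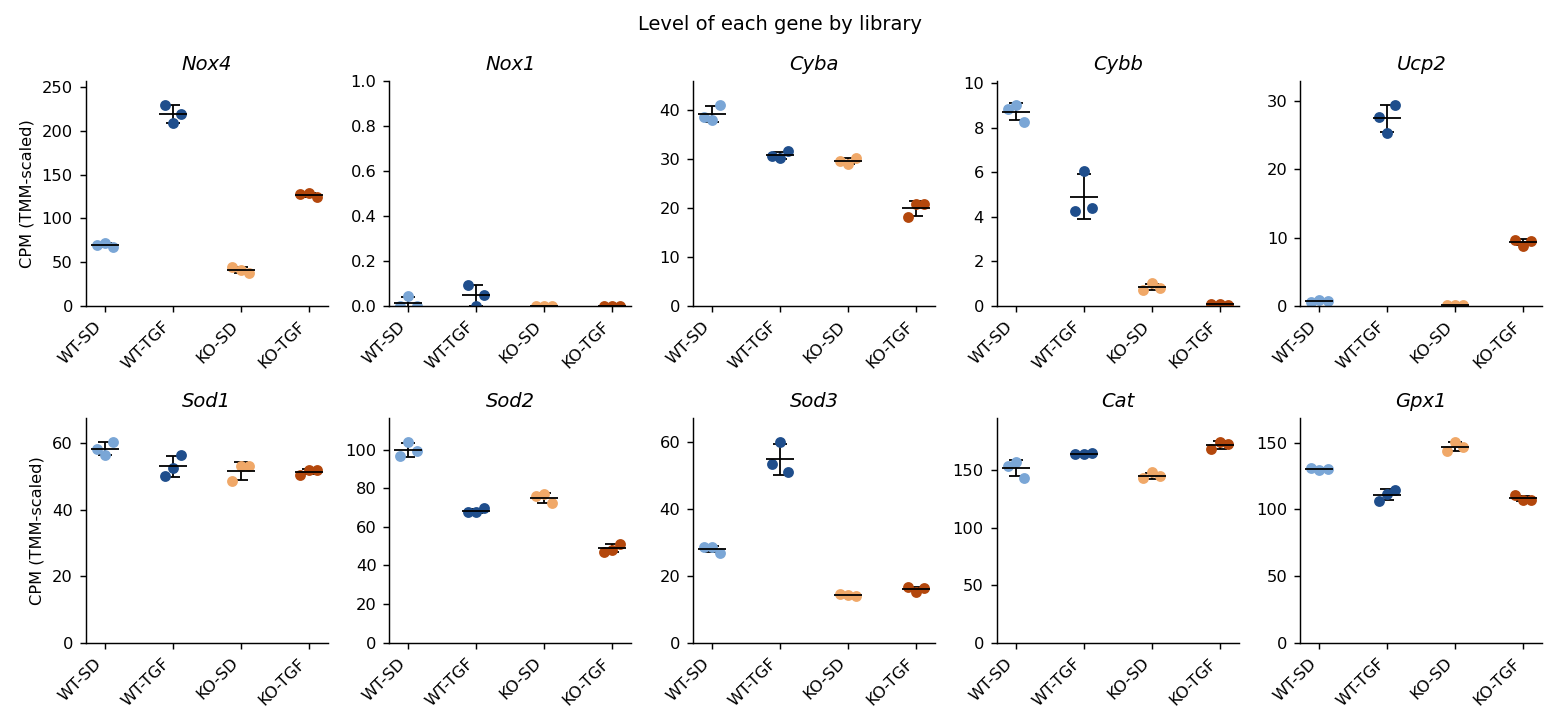
CPM of each gene (vertical axes, linear and starting at 0) in the 4 groups. Points are single libraries and bars give the mean ± SD of 3. Nox4 and Ucp2 were highest in WT-TGF, Cybb was near 0 in KO-TGF, and Sod3 averaged 54.8 CPM in the stimulated WT cells and 15.99 CPM in the stimulated KO cells.

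Nox4 (chromosome 7, 87244430 to 87398710, plus strand, GRCm38) was the most strongly expressed catalytic subunit. Its CPM in the 3 libraries were 69.4, 71.5 and 67.6 in WT-SD and 229, 209 and 219 in WT-TGF. They were 44.3, 41.6 and 37.9 in KO-SD and 128, 129 and 124 in KO-TGF. The groups did not overlap, in the order WT-TGF, KO-TGF, WT-SD and KO-SD, so that TGF-β brought the KO cells above unstimulated WT cells but not to stimulated WT cells. TGF-β raised Nox4 3.16-fold in WT (log2 fold change 1.66, SE 0.0392, adjusted p = 8.4e-26) and 3.08-fold in KO (1.62, SE 0.0444, adjusted p = 2.8e-24). The responses differed by -0.04 on the log2 scale (SE 0.06, adjusted p = 0.735), which was not called. Nox4 was lower in KO than in WT both in SD (log2 -0.75, SE 0.0465, adjusted p = 8.59e-15) and with TGF-β (-0.79, SE 0.0374, adjusted p = 1.24e-17). The genotypes thus differed in Nox4 level by 1.68-fold in SD and 1.73-fold with TGF-β, while a difference in the fold response was not detected.

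Nox1, a catalytic subunit best known from the colon and vascular smooth muscle, was barely detected. WT-SD libraries had 0, 1 and 0 counts and WT-TGF libraries 2, 0 and 1, while all 6 KO libraries had 0. A count of 0 allows up to 3 counts, or between 0.130 and 0.161 CPM in these libraries, so no fold change is given. Nox1 also overlaps Cstf2 in the RefSeq annotation.

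Cyba (chromosome 8, 122424771 to 122432940, minus strand), the membrane partner of both Nox4 and Cybb, fell on TGF-β where Nox4 rose, and like Nox4 was lower in KO. Its CPM were 38.7, 38.0 and 41.1 in WT-SD, 30.6, 30.2 and 31.6 in WT-TGF, 29.7, 29.0 and 30.2 in KO-SD and 18.2, 21.0 and 20.8 in KO-TGF. WT-SD was highest and KO-TGF lowest without overlap, and WT-TGF and KO-SD lay side by side, the lowest WT-TGF library at 30.22 and the highest KO-SD library at 30.23 CPM. Cyba fell on TGF-β in WT (log2 -0.35, SE 0.0499, adjusted p = 2.78e-07) and in KO (-0.57, SE 0.0581, adjusted p = 3.59e-10). It was lower in KO in SD (-0.40, SE 0.0501, adjusted p = 3.94e-08) and with TGF-β (-0.62, SE 0.0578, adjusted p = 1.04e-10). The fall was called deeper in KO by -0.22 (SE 0.0769, adjusted p = 0.0344), but this call was lost with DESeq2 (adjusted p = 0.166) and without any one of 7 libraries. Those were WT-SD replicates 1 and 2, WT-TGF replicate 3, KO-SD replicate 3 and each KO-TGF replicate, and without KO-TGF replicate 1 the difference was -0.12 (adjusted p = 0.313).

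Cybb (chromosome X, 9435252 to 9487766, minus strand), the phagocyte catalytic subunit, was low in WT and lower still in KO. It had 195, 208 and 182 counts in WT-SD and 90, 136 and 89 in WT-TGF. It had 16, 21 and 18 counts in KO-SD and 2, 2 and 1 in KO-TGF. No groups overlapped, and the WT-TGF libraries spread most, at 4.90 ± 1.01 CPM. Cybb fell on TGF-β in WT (log2 -0.82, SE 0.117, adjusted p = 2.82e-07) and in KO (-3.19, SE 0.51, adjusted p = 1.86e-06), and the fall in KO was the larger by -2.36 (SE 0.556, adjusted p = 0.00159). It was lower in KO in SD (-3.34, SE 0.171, adjusted p = 7.99e-17) and with TGF-β (-5.70, SE 0.326, adjusted p = 1.32e-15). From summed counts, WT-TGF was 55.7 times KO-TGF (exact 95% interval 23.6 to 173) and KO-SD was 9.65 times KO-TGF (3.89 to 30.9), and these intervals cover counting error only. Cybb overlaps Gm33784 in the RefSeq annotation.

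The summed macrophage markers had the same order of groups as Cybb, with WT-SD highest and KO-TGF lowest. Single markers did not all follow it, and Cd14 averaged 10.9 CPM in WT-SD, 6.75 in KO-SD, 3.34 in WT-TGF and 1.33 in KO-TGF. Adgre1, Tyrobp, Spi1, C1qa, C1qb and C1qc were at 0 in all 6 KO libraries. Adgre1 stood at 7.67 ± 0.0650 CPM in WT-SD and 3.96 ± 1.37 in WT-TGF, but the others were low in WT-SD too, at 18 to 32 counts over 3 libraries. Csf1r, Cd68 and Fcer1g were still detected in KO, with 38, 74 and 16 counts in KO-SD and 29, 33 and 15 in KO-TGF. The part of such cells in the results for Cybb and Cyba was not tested.

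**Figure D2:**
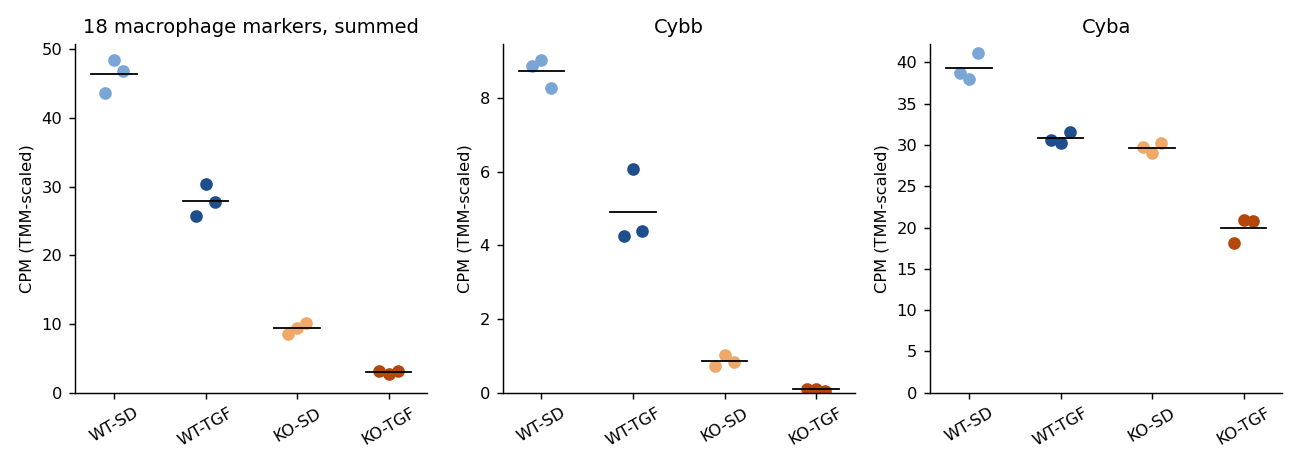
Summed CPM of 18 macrophage markers (left), Cybb (middle) and Cyba (right) by group. Points are single libraries, lines are group means and the vertical axes start at 0. The marker sum fell from at least 43.7 CPM in WT-SD to at most 3.16 CPM in KO-TGF, Cybb from 8.72 to 0.0889 CPM on average and Cyba from 39.3 to 19.98 CPM.

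Ucp2 (chromosome 7, 100493337 to 100499629, plus strand) had the largest response of the members. It had 13, 21 and 15 counts in WT-SD and 584, 569 and 595 in WT-TGF. KO-SD libraries had 3, 2 and 4 counts and KO-TGF libraries 180, 165 and 181. The groups did not overlap, and the TGF-β libraries of both genotypes stood far above the SD libraries of either. In WT, TGF-β raised Ucp2 from 0.728 ± 0.165 CPM to 27.5 ± 2.02 (log2 5.22, SE 0.125, adjusted p = 1.04e-25). In KO it raised it from 0.139 ± 0.0435 CPM to 9.32 ± 0.439 (5.999, SE 0.225, adjusted p = 1.01e-20). From summed counts, the ratio in KO was 66.6 with an exact 95% interval of 34.8 to 146, since KO-SD held 9 counts in all. The responses differed by 0.78 (SE 0.455, adjusted p = 0.230), which was not called. Ucp2 was lower in KO with TGF-β (-1.56, SE 0.0774, adjusted p = 4.18e-17) and in SD (-2.34, SE 0.423, adjusted p = 2.25e-05), where the ratio of WT to KO from summed counts was 5.22 (2.54 to 12.1). As with Nox4, the level in KO-TGF lay between WT-SD and WT-TGF.

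The dismutases each behaved differently. Sod3 (chromosome 5, 52363804 to 52369738, plus strand), the extracellular form, had 28.6, 28.6 and 26.8 CPM in WT-SD and 53.4, 60.0 and 50.9 in WT-TGF. In KO it had 14.6, 14.1 and 14.0 CPM in SD and 16.5, 15.2 and 16.2 with TGF-β. Every KO library thus lay below every WT library. Sod3 rose 1.96-fold in WT (log2 0.97, SE 0.0531, adjusted p = 1.92e-16) and by 0.17 in KO (SE 0.0763, adjusted p = 0.0482), and the response was smaller in KO by -0.80 (SE 0.0932, adjusted p = 5.87e-08). Its genotype difference accordingly went from -0.98 in SD (SE 0.0665, adjusted p = 8.95e-14) to -1.78 with TGF-β (SE 0.0608, adjusted p = 3.55e-21). The rise in KO was not stable. It turned to -0.04 with library sizes alone (adjusted p = 0.679), and it lost its call without WT-SD replicate 1 or 2, WT-TGF replicate 1, KO-SD replicate 2 or 3, or KO-TGF replicate 1 or 3, with values from 0.16 to 0.18 and adjusted p from 0.0508 to 0.106. The difference in response ran from -0.85 to -0.73 when each library was left out.

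Sod2 (chromosome 17, 13007839 to 13018119, plus strand), the manganese enzyme of mitochondria, fell in both genotypes. It had 96.9, 104 and 99.0 CPM in WT-SD, 67.7, 67.4 and 69.6 in WT-TGF, 75.8, 77.2 and 72.2 in KO-SD and 47.2, 48.0 and 51.2 in KO-TGF. No groups overlapped, with WT-SD highest, then KO-SD, WT-TGF and KO-TGF. The fall was -0.55 in WT (SE 0.0385, adjusted p = 7.5e-14) and -0.62 in KO (SE 0.0422, adjusted p = 3.22e-14) on the log2 scale, and the difference of -0.07 (SE 0.0573, adjusted p = 0.421) was not called. Sod2 was lower in KO by -0.41 in SD (SE 0.038, adjusted p = 8.68e-11) and by -0.48 with TGF-β (SE 0.0427, adjusted p = 3.61e-11).

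Sod1 (chromosome 16, 90220762 to 90226333, plus strand), the copper-zinc enzyme of the cytosol, varied least of the dismutases. Its CPM were 58.2, 56.5 and 60.4 in WT-SD and 50.1, 52.4 and 56.5 in WT-TGF. They were 48.6, 53.1 and 53.1 in KO-SD and 50.6, 51.8 and 51.9 in KO-TGF. WT-SD lay just above the other 3 groups, which overlapped each other. Sod1 fell on TGF-β in WT by -0.14 (SE 0.044, adjusted p = 0.00541), a call lost without WT-TGF replicate 1 (-0.10, adjusted p = 0.0653), and unstimulated KO cells were lower than unstimulated WT cells by -0.18 (SE 0.0442, adjusted p = 0.000969). In KO its log2 response was -0.0044 (SE 0.0461, adjusted p = 0.936), and with TGF-β the genotypes differed by -0.04 (SE 0.046, adjusted p = 0.455), neither of which was called. With library sizes alone both were called, at -0.21 and -0.16.

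With TMM scaling, the peroxide-removing enzymes moved in opposite directions on TGF-β. Cat (chromosome 2, 103453904 to 103485153, minus strand) had 154, 157 and 143 CPM in WT-SD, 164, 164 and 165 in WT-TGF, 143, 148 and 145 in KO-SD and 168, 174 and 173 in KO-TGF. TGF-β libraries lay above SD libraries in both genotypes. Cat rose by 0.24 in KO (log2, SE 0.0304, adjusted p = 2.31e-08) and by 0.12 in WT (SE 0.03, adjusted p = 0.00105), where it turned to -0.04 with library sizes alone, the same scaling under which the rise in KO was no longer called (0.04, adjusted p = 0.252). The response was called larger in KO by 0.13 (SE 0.0427, adjusted p = 0.0259), and this call was lost with library sizes alone, without an expression filter and without WT-SD replicate 1 or 2 or WT-TGF replicate 1 (0.10 to 0.12). Between genotypes Cat differed by -0.06 in SD (SE 0.0303, adjusted p = 0.0847) and by 0.07 with TGF-β (SE 0.0301, adjusted p = 0.0642), neither called. The difference in SD was called with library sizes alone (-0.14, adjusted p = 0.000326), without WT-SD replicate 3 (-0.10, adjusted p = 0.00615) and without any one KO-TGF replicate (-0.08, adjusted p from 0.0237 to 0.0268). The difference with TGF-β turned to -0.06 with library sizes alone and was called with DESeq2 (0.08, adjusted p = 0.0483), the CPM filter, no filter or the replicate block, and without WT-SD replicate 3, KO-SD replicate 1 or KO-TGF replicate 1 (0.06 to 0.10).

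Gpx1 (chromosome 9, 108339080 to 108340342, plus strand) was the only one of the 9 members tested that was higher in unstimulated KO cells. It had 131, 129 and 130 CPM in WT-SD and 143, 151 and 147 in KO-SD, which did not overlap (log2 0.18, SE 0.0307, adjusted p = 1.35e-05). With TGF-β it had 107, 111 and 115 CPM in WT and 110, 107 and 107 in KO, which overlapped (-0.04, SE 0.0326, adjusted p = 0.358). Gpx1 fell in WT by -0.23 (SE 0.0315, adjusted p = 1.31e-07) and in KO by -0.44 (SE 0.0318, adjusted p = 1.18e-13), and the fall was larger in KO by -0.21 (SE 0.0448, adjusted p = 0.000491). With library sizes alone the difference with TGF-β was called, at -0.16 (adjusted p = 0.000143).

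**Figure D3:**
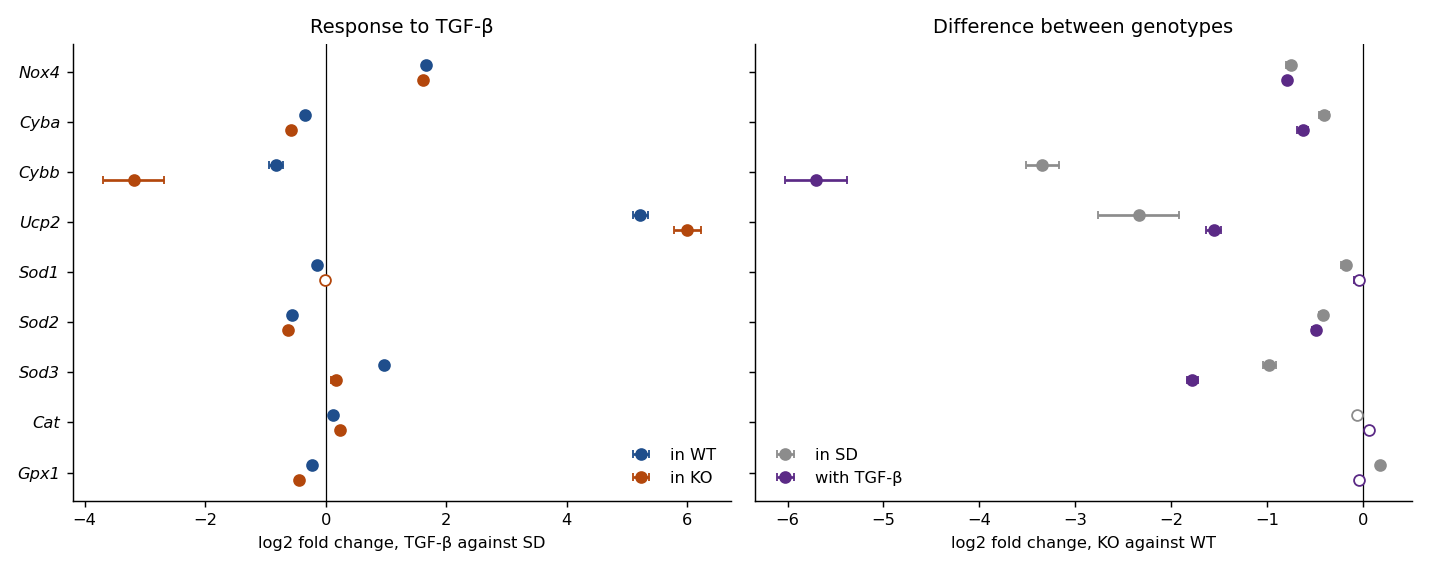
Log2 fold changes of the 9 members tested, for TGF-β against SD in WT and KO (left) and for KO against WT in SD and with TGF-β (right). Bars are standard errors of the fit, filled points were called at FDR <5% and open points were not. Nox4 responses nearly coincide at 1.66 and 1.62, while those of Sod3 are 0.97 and 0.17, and Cybb lies farthest to the left in KO-TGF against WT-TGF at -5.70.

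To compare the members with each other, levels were divided by the length of the exons that match the RefSeq transcript. On this RPKM scale the highest member in every group was Gpx1, followed by Sod1 and Cat, and the lowest was Nox1. Nox4 ranked at place 5 in WT-SD, place 6 in KO-SD and place 4 in both TGF-β groups. There it stood above Cyba, which was at 52.8 ± 2.18 RPKM in WT-SD and 41.4 ± 0.970 in WT-TGF. Their order depends on the lengths of 3753 bases for Nox4 and 744 for Cyba, where exon unions of all transcripts have 8471 and 1039. In CPM, Nox4 exceeded Cyba already in SD, at 69.5 against 39.3 in WT and 41.3 against 29.7 in KO. Nox4 itself stood at 18.5 ± 0.512 and 58.5 ± 2.69 RPKM in WT-SD and WT-TGF, and at 10.99 ± 0.861 and 33.9 ± 0.650 in KO-SD and KO-TGF. With the RefSeq-matched lengths Sod1 stood between 80.2 and 91.1 RPKM on average and made up most of the dismutase sum. Its rank and share depend on the length of 641 bases, where its exon union of all transcripts has 3970. In CPM, Sod2 exceeded Sod1 in WT-SD, at 99.9 against 58.4. Sod2 and Sod3 averaged at most 17.1 and 14.6 RPKM.

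Per 100 RPKM of Sod1, Sod2 and Sod3 together, Nox4 was at 16.1, 16.8 and 15.2 in WT-SD and at 58.8, 51.03 and 51.4 in WT-TGF. It was at 12.8, 11.1 and 10.2 in KO-SD and at 37.4, 36.9 and 35.2 in KO-TGF. With these lengths the groups did not overlap, but with exon unions of all transcripts WT-TGF (80.5, 68.7 and 74.4) and KO-TGF (69.2, 69.3 and 65.2) did. The mean ratio rose 3.36-fold on TGF-β in WT and 3.21-fold in KO, an order that turned with exon unions (2.92 and 3.38) and with counts (3.35 and 3.74). The KO mean was 0.709 of the WT mean in SD and 0.679 of it with TGF-β, or 0.911 with exon unions and 0.877 with counts in the latter. Against Sod3 alone the order differed. Nox4 was at 247 ± 4.87 per 100 RPKM of Sod3 in WT-SD, 402 ± 47.0 in WT-TGF, 289 ± 17.1 in KO-SD and 793 ± 42.5 in KO-TGF, so that KO-TGF was 1.97 times WT-TGF. WT-TGF replicate 2, which had the highest Sod3, gave the lowest of its group at 347. These ratios were taken from the same values as the levels above, and they describe messenger RNA, not enzyme activity or an oxidant balance.

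**Figure D4:**
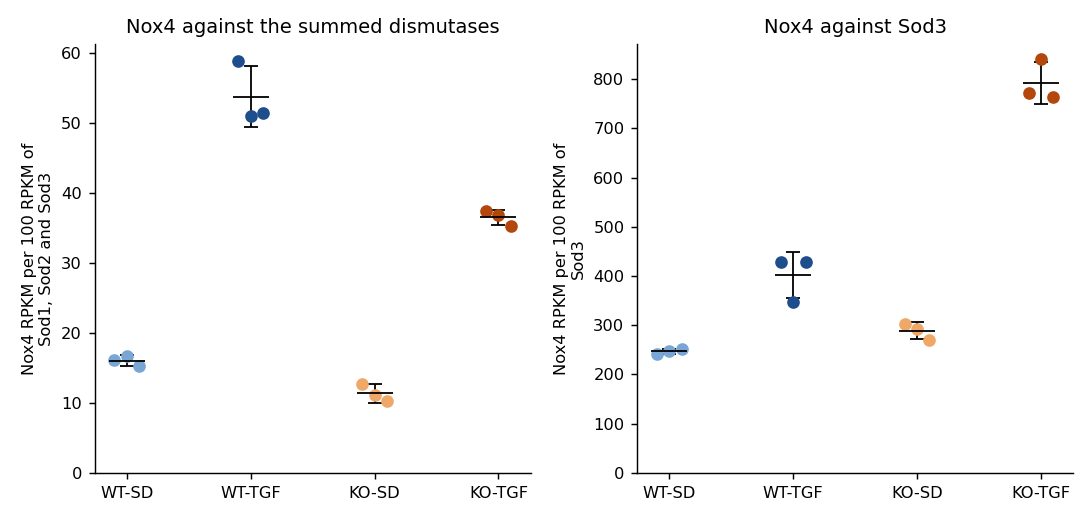
Nox4 RPKM per 100 RPKM of the 3 dismutases (left) and of Sod3 alone (right), by group. Points are single libraries, bars are mean ± SD of 3 and the vertical axes start at 0. Against the summed dismutases WT-TGF is highest, at 53.8 ± 4.39, whereas against Sod3 KO-TGF is highest, at 793 ± 42.5.

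Other genes of the same pathways were taken from a list of 82, of which 59 were tested. On TGF-β 25 rose and 22 fell in WT, and 24 rose and 22 fell in KO, with median log2 changes of 0.02 and 0.05 beside -0.01 and -0.03 over all genes. In KO-SD against WT-SD 15 were higher and 21 lower, and in KO-TGF against WT-TGF 18 were higher and 22 lower. The interaction was positive for 8 and negative for 12. Beside the shares of all genes given above, the list had 42.4% higher and 37.3% lower in WT on TGF-β and 40.7% and 37.3% in KO. Between genotypes it had 25.4% higher and 35.6% lower in SD and 30.5% and 37.3% with TGF-β, and 13.6% and 20.3% of it had a called interaction. The counts on TGF-β given next for parts of the list stand beside 36% higher and 36.4% lower of all genes in WT. In KO the shares of all genes were 34.9% and 39.1%. Each part held only 5 to 14 tested genes, and none was tested as a set.

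Of 16 further NADPH oxidase subunits and partners 7 were tested, of which 4 rose and 2 fell in WT and 5 rose and 2 fell in KO. Sh3pxd2a, a scaffold of invadopodia related to the oxidase organizers, was the most abundant, at 956 ± 12.3 CPM in WT-SD, and rose by 0.29 in WT and by 0.09 in KO, where library sizes alone turned it to -0.12. Noxo1, the organizer subunit of Nox1, fell by -1.44 in WT and -1.73 in KO. Rac2, the Rac protein of blood cells, had 74 counts in WT-SD and 36 in WT-TGF over 3 libraries and 0 in every KO library, and so was at least 23.7-fold lower in KO-SD and at least 10.6-fold lower in KO-TGF with a floor of 3 counts over the group. Ncf1, named here after its values were seen, had 53 counts in WT-SD and 5 in KO-SD, a ratio of 10.2 (exact 95% interval 4.09 to 32.6). For Rac2 and Ncf1, as for Cybb, the macrophage marker sum moved in the same direction, and its part was not tested.

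Of 10 other oxidant-producing enzymes 5 were tested, and on TGF-β 4 fell and 1 rose in both genotypes. Shc1, an adaptor whose long form is linked to mitochondrial oxidants, fell by -0.27 in WT and -0.31 in KO. Aox1, aldehyde oxidase, fell by -0.97 and -1.12. Nos2, the inducible nitric oxide synthase, fell in WT from 12.8 ± 0.742 CPM to 4.98 ± 0.787 and in KO from 3.90 ± 0.559 CPM to 0.813 ± 0.352 (log2 -1.36 and -2.25), the fall being larger in KO by -0.88 (adjusted p = 0.0157), a call lost without KO-TGF replicate 1 (-0.62, adjusted p = 0.137) or 2 (-0.74, adjusted p = 0.0897). Ero1l, the oxidase of the endoplasmic reticulum that makes hydrogen peroxide while forming disulfide bonds, went the other way. It rose by 0.57 in WT and 1.06 in KO, and was higher in KO by 0.58 in SD and 1.07 with TGF-β, reaching 161 ± 1.45 CPM in KO-TGF. Xdh, xanthine dehydrogenase, lay under the RPKM limit and was read from the fit of all 18565 genes with a count, where it fell by -1.83 in WT and -3.34 in KO, from 5.47 ± 0.837 and 5.31 ± 0.292 CPM.

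Among 8 mitochondrial carriers related to Ucp2, 6 were tested, and on TGF-β 1 rose and 2 fell in WT and 1 rose and 3 fell in KO. Slc25a4, the adenine nucleotide carrier, had no called response to TGF-β in either genotype, at 310 ± 2.27 CPM in WT-SD and 308 ± 7.15 in WT-TGF. Slc25a27, another uncoupling protein, fell in WT from 7.54 ± 0.464 CPM to 3.57 ± 0.431 and in KO from 5.39 ± 0.442 CPM to 2.59 ± 0.628, against the direction of Ucp2. Of 10 genes that supply copper and manganese to the dismutases 8 were tested, of which 4 rose and 2 fell in WT and 5 rose and 2 fell in KO. Slc25a3, which carries phosphate and copper into mitochondria, rose by 0.14 in WT and 0.18 in KO, both of which turned to -0.02 and -0.03 with library sizes alone. Slc31a2, a copper transporter of endosomes, fell by -0.69 in WT and -1.01 in KO.

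Of 13 further peroxidases 10 were tested, and on TGF-β 7 rose and 2 fell in WT and 6 rose and 2 fell in KO. Prdx6, a peroxiredoxin that also reduces phospholipid peroxides, rose in WT from 119 ± 2.62 CPM to 253 ± 8.96 and in KO from 133 ± 2.97 CPM to 280 ± 5.99, with log2 changes of 1.09 and 1.07 (adjusted p = 3.41e-24 and 4.22e-24). Gpx3, the secreted glutathione peroxidase, was lower in KO by -2.21 in SD and -2.42 with TGF-β, at 269 ± 10.4 and 185 ± 1.97 CPM in WT against 58.1 ± 3.88 and 34.6 ± 2.102 CPM in KO. Gpx7, a peroxidase of the endoplasmic reticulum, was lower in KO by -2.77 and -3.17, and with TGF-β stood at 25.3 ± 0.177 CPM in WT and 2.80 ± 0.0284 in KO. Both thus went with Sod3 in their lower level in KO, while Gpx1 did not. Of 14 genes that recycle thioredoxin and glutathione, all tested, 6 rose and 3 fell in WT and likewise in KO. Txnip, the thioredoxin inhibitor, was higher in KO by 0.75 in SD and 0.73 with TGF-β, where unstimulated WT cells had 148 ± 3.15 CPM and KO cells 250 ± 7.74, with no called response to TGF-β. Glrx, glutaredoxin, fell by -1.28 in WT and -1.99 in KO.

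Of 11 regulators of mitochondrial and antioxidant genes 9 were tested. On TGF-β 2 rose and 7 fell in WT, and 6 fell in KO while the other 3 were not called. Nfe2l2, the activator of antioxidant response genes, fell in WT from 122 ± 3.84 CPM to 101 ± 1.56 and in KO from 107 ± 3.90 CPM to 98.2 ± 0.594 (log2 -0.27 and -0.13). Pparg, a nuclear receptor, fell in WT from 3.46 ± 0.0941 CPM to 1.06 ± 0.236 and in KO from 4.33 ± 0.652 CPM to 1.52 ± 0.278.

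**Figure D5:**
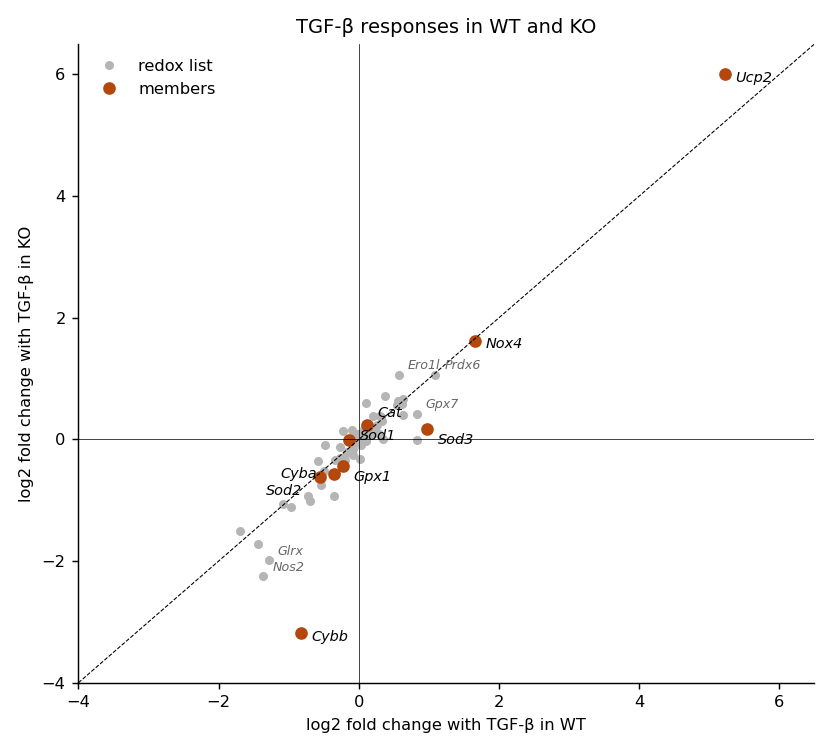
Log2 fold change with TGF-β in WT (horizontal) and in KO (vertical) for the 9 members tested (large points) and for tested genes of the redox list (small points). The dashed line marks equal responses. Nox4 lies on the line, Sod3 below it at 0.97 and 0.17 and Cybb below it at -0.82 and -3.19.

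The genes whose log2 CPM followed Nox4 most closely over the 12 libraries, of 10505 genes compared, were Smad7, the inhibitory SMAD, with Pearson r = 0.997, Lpcat2 with 0.997 and Endod1 with 0.995. Those closest to Ucp2 were Gadd45b, Arhgef5 and Camk2n1, each with 0.997. Those closest to Sod3 were Mmp2, a gelatinase of the extracellular matrix, with 0.992, Serpina3h with 0.990 and Flt1 with 0.988. Mmp2 averaged 1506 CPM in WT-SD, 2254 in WT-TGF, 1011 in KO-SD and 1158 in KO-TGF. Its mean was thus higher with TGF-β in both genotypes, and lower in KO, as for Sod3. The libraries share 4 groups, so these values describe how alike the patterns of the groups are and carry no test.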

How the data were processed

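The 12 files deposited by the authors hold raw counts per RefSeq gene, made by them with TopHat (mm10) and strand-specific HTSeq-count from single-end reads of mRNA libraries, without normalization. Alignment and counting were not repeated. Reads on no gene (10.3% to 15.4%), aligned to several places (11.2% to 11.7%) or on overlapping genes (0.225% to 0.274%) entered neither library sizes nor tests. Replicates differed by more than sampling noise (chi-square per degree of freedom 1.36 to 5.09 over replicate pairs), so none was a repeated deposit.

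The counts were tested in edgeR 4.0.16 (R 4.3.3) by the quasi-likelihood test after TMM scaling, with p-values adjusted by Benjamini-Hochberg. A single fit held 12 libraries and a mean for each group (biological coefficient of variation 0.0268). It took the 11527 genes that passed RPKM >1 somewhere, with exon lengths from GENCODE. The code was tested on simulated data. Nox1, Rac2 and Xdh came from a second fit that kept each of the 18565 genes counted at all. Ratios from summed counts have exact conditional 95% intervals, computed in scipy 1.17.1. Intervals and floors cover counting error only. DESeq2 1.42.0 and other settings were alternatives. Members and lists were chosen with earlier results of these data known. From each list the text names the gene with the highest mean CPM and every gene called with fold change >2 and at least 1 CPM in the higher group, apart from a result that is not reported here. For likeness, genes had at least 5 CPM in the highest group and a prior count of 2.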

Additional observations from a re-analysis of the deposited data

Results flagged for a closer look

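The results here were singled out because the response to TGF-β differed between WT and KO by the interaction test (edgeR's quasi-likelihood test, FDR <5%). Groups of 3 libraries were not tested for single outlying samples. Each value is the log2 response in KO minus that in WT. Among the members, it was -2.36 for Cybb, -0.80 for Sod3, -0.22 for Cyba, -0.21 for Gpx1 and 0.13 for Cat. The values for Cyba and Cat lost their call in several of the settings tried, with values nearest to 0 of -0.12 for Cyba without KO-TGF replicate 1 and 0.08 for Cat with library sizes alone.

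Of the list of other pathway genes, 8 tested genes had a called positive difference and 12 a negative one, and only those named by the rule given above are listed here, with Xdh from the fit of all genes with a count. The difference was 0.49 for Ero1l, 0.15 for Nfe2l2, -0.20 for Sh3pxd2a, -0.21 for Gpx3, -0.32 for Slc31a2, -0.70 for Glrx, -0.88 for Nos2 and -1.51 for Xdh. The call was lost for Gpx3 without KO-TGF replicate 3 (-0.12, adjusted p = 0.180) and for Nos2 without KO-TGF replicate 1 (-0.62) or 2 (-0.74). For Nfe2l2 it was lost with library sizes alone (0.10), without a filter (0.13) and without WT-SD replicate 1 or 2, WT-TGF replicate 2 or KO-SD replicate 3 (0.12 to 0.14). Like Cybb, the macrophage marker sum fell on TGF-β in both genotypes, although some single markers, such as Cx3cr1 in WT, did not. The sum ran from 43.7 to 48.5 CPM in WT-SD and from 25.7 to 30.3 CPM in WT-TGF. In KO it ran from 8.50 to 10.2 CPM in SD and from 2.67 to 3.16 CPM with TGF-β. Of 6 macrophage markers tested, 2 had a called negative interaction and 0 a positive one, with a median log2 difference of -0.11. The part of the marker sum in the difference for Cybb was not tested.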

How the results depend on the processing

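For the 45 log2 fold changes of tested members, 846 alternative values were computed: 793 kept direction and call, 22 lost the call, 16 gained one and 15 changed sign. With library sizes alone, Cat turned to -0.0429 in WT-TGF against WT-SD and -0.0555 in KO-TGF against WT-TGF, and Sod3 turned to -0.0360 in KO-TGF against KO-SD. For the 68 called log2 changes of named list genes, 1256 of 1284 alternative values kept direction and call, 23 lost the call and 5 changed sign, all with library sizes alone. Those were Sh3pxd2a in KO (-0.116), Slc25a3 in WT (-0.0155), in KO (-0.0273) and in KO-TGF against WT-TGF (-0.0288), and Slc25a4 in KO-TGF against WT-TGF (-0.0309). The TMM factors themselves ran from 0.898 in KO-TGF to 1.10 in WT-SD. That scaling left 2 members and 14 list genes higher in KO-TGF against KO-SD, 8 list genes higher in KO-TGF against WT-TGF and 0 members with a positive interaction, as did the fit without a filter (0). The uncalled response of Sod1 in KO, near 0, turned to 0.0134 with DESeq2, 0.0087 with the CPM filter, 0.0091 without a filter and 0.0054 with only the groups compared.

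One member, Cat, became higher in KO-TGF against WT-TGF with DESeq2, the CPM filter, no filter or the replicate block (1 in each case, in place of 0). Leaving out each library gave 0 to 1 there and 0 to 2 for members with a positive interaction. It gave -0.0470 to 0.0291 for Sod1 in KO, -0.0844 to 0.00487 for Sod1 in KO-TGF against WT-TGF and -0.0935 to 0.0210 for the interaction of Nox4. Replicate numbers showed no pairing of the samples over all tested genes: over 18 pairs of same-numbered libraries, deviations correlated between -0.0262 and 0.0764. Such a correlation cannot exclude a pairing that acts on only some genes. The replicate block called 1091 genes with a positive and 2078 with a negative interaction, in place of 1000 and 1915.

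Nox4 per 100 of the summed dismutases was 37.3 in WT-SD and 124.8 in WT-TGF from counts without division by length, and 29.3 in KO-SD and 109.4 in KO-TGF. With exon unions of all transcripts, chosen after seeing the data, the same 4 values were 25.5, 74.5, 20.1 and 67.9, the fold on TGF-β was larger in KO than in WT under both alternatives, and WT-TGF and KO-TGF overlapped under exon unions. Apart from these lengths, the cause of the changes was not tested. Depth limits Nox1, Cybb in KO-TGF and Ucp2 in KO-SD, which rest on at most 9 counts a group.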
